A study of Homo sapiens with 4 samples.

Results

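The genes described here set the restriction point of G1: the transcription factor MYC, the D cyclins CCND1, CCND2 and CCND3, the kinases CDK4 and CDK6, the inhibitors CDKN2A, CDKN2C and CDKN1C, and the retinoblastoma gene RB1. They were chosen by name, as every probe whose symbol in GEO's platform annotation was one of these 10. In all, 9 of the 10 genes had a probe, 13 probes of 47231 on the array, and CDKN2C was not analysed here because no probe carried its symbol.

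The arrays measured the Hodgkin lymphoma cell line L591 after transfection with 40 µg of the empty plasmid pcDNA3 (mock) or with the same amount of pcDNA3 carrying PDLIM2 transcript variant 2. Both groups also received 10 µg of the GFP plasmid pEGFP-N3, and the GFP-positive cells were sorted, so the mock cells share transfection, GFP and sorting with the PDLIM2 cells. PDLIM2 encodes a putative ubiquitin ligase. There were 2 Illumina bead arrays per group, which the labels number 1 and 2, and every value below is a log2 intensity.

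A cell in G1 commits to division when D cyclins, made in response to growth signals, bind CDK4 or CDK6 and the complex phosphorylates the RB1 protein. Phosphorylated RB1 releases E2F factors, which switch on the replication genes. Inhibitors of the INK4 family, encoded by CDKN2A and CDKN2C, block CDK4 and CDK6, while the CIP/KIP inhibitor p57, encoded by CDKN1C, binds cyclin-CDK complexes more broadly. MYC drives growth and raises the transcription of several of these genes, CCND2 and CDK4 among them, and the second product of CDKN2A, ARF, protects p53.

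The cells were checked first against marker genes. All 10 Hodgkin cell markers measured lay above the median of all probes, as did 12417 of all 20045 named genes by their brightest probe. The chemokine gene CCL22 stood at percentile 99.4 and the adaptor gene TRAF1 at 94.7. Lower were TNFRSF8, which encodes CD30, at 68.3 and the chemokine gene CCL17 at 54.6. Of 7 B cell markers 6 lay above the median and PAX5 did not. CD79A stood at percentile 96.5, EBF1 at 93.0, CD79B at 85.6 and CD22 at 82, with BLNK at 59.3 and MS4A1 at 53.2. Of 7 T and NK cell markers 3 lay above the median, CD2 at percentile 96.9, NKG7 at 74.1 and GZMB at 70.5. The T cell genes CD3D, CD3E, CD3G and CD8A lay under the median, and 5 of 8 myeloid markers lay above it. The mean of each marker list ranged over similar values in both groups, as with the Hodgkin markers at 10.35 to 10.67 in the mock and 10.45 to 10.60 in the PDLIM2 arrays, the B cell markers at 8.24 to 8.30 and 8.26 to 8.35, the T and NK markers at 7.06 to 7.07 and 6.93 to 7.10, and the myeloid markers at 6.38 to 6.60 and 6.44 to 6.54. Single markers departed from this: CD83, a Hodgkin marker in the list, differed by -0.65 (SE 0.17, limma, unadjusted p = 0.0058) and the myeloid marker CD68 by -0.46 (SE 0.18, unadjusted p = 0.037). Both were without overlap and at an adjusted p of 0.9998 in limma. The groups did not overlap for 3 of 10 Hodgkin and 4 of 7 B cell markers, beside 29% of all named genes. Among the T and NK markers this held for 0 of 7, and among the myeloid markers for 2 of 8. PDLIM2 itself had 2 probes, both dim (percentiles 6.14 and 2.99), with differences of 0.31 (SE 0.18) and -0.29 (SE 0.15), and where these probes lie in the transfected cDNA is not known, so they do not check the labels.

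The comparison asks whether PDLIM2 altered the G1 genes of these cells. None of the 13 member probes passed the test: with limma fitted across 47230 probes, the adjusted p was 0.9998 for each, and 0 probes of the whole table (0%) were called at 0.05. At an unadjusted p under 0.05 there were 0 member probes, against 1211 probes of the table (2.56%). No member probe differed by 1.5-fold or more (1.05% of all probes did), and the differences ran from -0.35 (RB1) to 0.36 (CCND2), with 6 above 0 and 7 below. For 3 of the 13 the groups did not overlap, near the 28.4% of all probes for which this held. With 2 arrays a group, the 95% intervals of the bright members reached 0.38 to 0.59 log2 units to either side. A difference within that reach would not pass even an unadjusted threshold, and the adjusted threshold asks for more. Nothing in the labels ties the 2 arrays of a group to separate cultures, and the p-values therefore reflect array-to-array spread that may be technical. Each array averages many sorted cells, so fewer cells with a transcript and less of it per cell cannot be told apart.

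**Figure D1:**
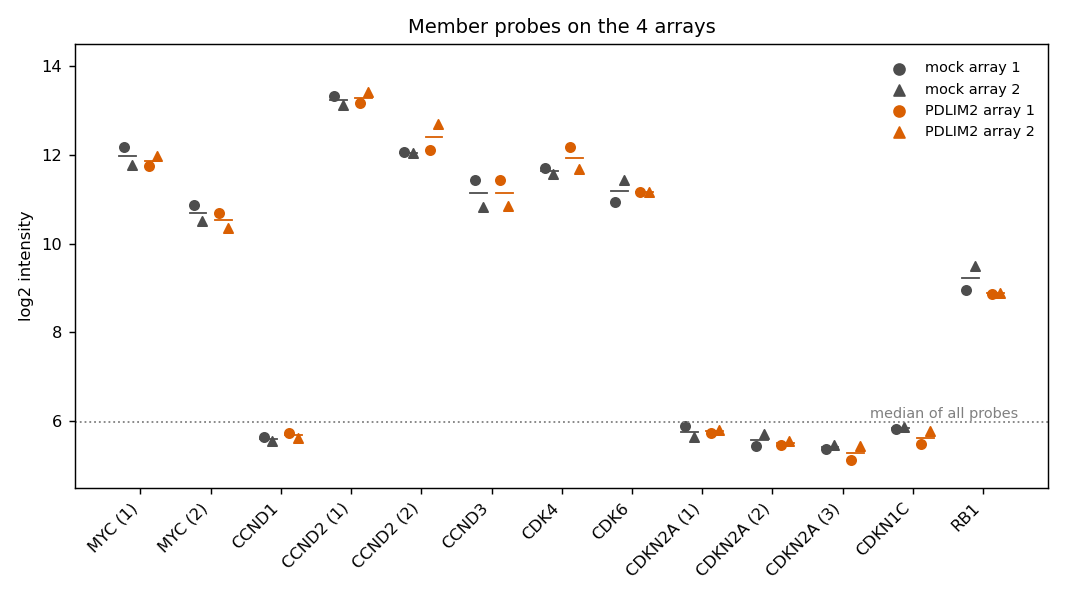
Log2 intensity of the 13 member probes on each array. Circles are arrays numbered 1, triangles arrays numbered 2, grey the mock and orange the PDLIM2 group, short lines the group means and the dotted line the median of all probes (5.99); genes with several probes are numbered from the brighter down. Probes of MYC, CCND2, CCND3, CDK4, CDK6 and RB1 lay above the line, and those of CCND1, CDKN2A and CDKN1C under it.

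The members fell into 2 classes of brightness. The 8 probes of MYC, CCND2, CCND3, CDK4, CDK6 and RB1 lay above the median of all probes, and the 5 probes of CCND1, CDKN2A and CDKN1C lay under it, between 5.13 and 5.89 on every array. How far a dim probe stands above background is unknown here, and probes differ in their response, so the percentiles place each probe among all probes and do not rank the genes by transcript.

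MYC, the transcription factor at the head of the pathway, was bright in every array. Its brighter probe, ILMN_1680618, read 12.17 and 11.78 on the mock arrays 1 and 2 and 11.74 and 11.98 on the PDLIM2 arrays 1 and 2 (percentile 97.0). The PDLIM2 values lay on either side of the second mock value, so the groups overlapped. The group means were 11.97 ± 0.28 and 11.86 ± 0.17 (SD, n = 2 each), a difference of -0.11 (SE 0.18, 95% interval -0.54 to 0.31). The second probe, ILMN_2110908, read 10.88 and 10.51 on the mock arrays and 10.69 and 10.36 on the PDLIM2 arrays. Here both arrays numbered 1 were higher than both numbered 2, and the groups overlapped again. Its difference was -0.17 (SE 0.19, interval -0.61 to 0.28). The MYC differences were smaller than their standard errors, and neither sign was stable: with 1 array left out they ranged from -0.31 to 0.081 and from -0.35 to 0.020.

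The genes whose pattern over the 4 arrays lay nearest to the brighter MYC probe were UBALD1, the small nucleolar RNA gene SNORA68 and TLE6. Their root mean square distances, after each probe was centred on its mean, were 0.0096, 0.013 and 0.020 log2 units, among 12240 genes with a probe above the median. With 4 arrays a near match of this kind is a description only.

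Among the D cyclins, which carry growth signals to CDK4 and CDK6, CCND2 and CCND3 had bright probes and CCND1 a dim one. The brighter CCND2 probe, ILMN_2067656, read 13.33 and 13.13 on the mock arrays and 13.17 and 13.41 on the PDLIM2 arrays (percentile 98.9). Those groups overlapped, and the difference was 0.059 (SE 0.17, interval -0.32 to 0.44), or -0.062 without the PDLIM2 array 2 and -0.043 without the mock array 2. The second CCND2 probe, ILMN_1667081, is annotated to the same transcript and read 12.06 and 12.05 on the mock arrays against 12.12 and 12.71 on the PDLIM2 arrays. The groups did not overlap, but only the PDLIM2 array 2 stood clear of the others. Its difference was 0.36 (SE 0.21, interval -0.12 to 0.84, unadjusted p = 0.119 and adjusted p = 0.9998 in limma), which was 0.068 without that array and 0.65 without the PDLIM2 array 1. Of all member probes it had the widest range over the arrays, 0.66 log2 units. The genes nearest to its pattern were the ribosomal protein gene RPL14, RBMS1 and the vitamin D receptor gene VDR, at 0.012, 0.021 and 0.021 log2 units.

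CCND3, the D cyclin common to many lymphoid cells, followed the array number and not the group. It read 11.44 and 11.43 on the mock and PDLIM2 arrays numbered 1, and 10.83 and 10.86 on those numbered 2. The means of the groups were almost equal, with a difference of 0.0074 (SE 0.26, interval -0.59 to 0.60), while the arrays numbered 2 lay below those numbered 1 by a mean difference of -0.60. What the number stands for is not given in the labels. The CCND3 difference was -0.30 without the mock array 2 and 0.31 without the mock array 1. CCND1, the D cyclin of many epithelial and mantle cell tumours, had 1 probe, which read 5.64 and 5.56 on the mock arrays and 5.74 and 5.62 on the PDLIM2 arrays (percentile 17.8). The values overlapped, with a difference of 0.085 (SE 0.15).

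**Figure D2:**
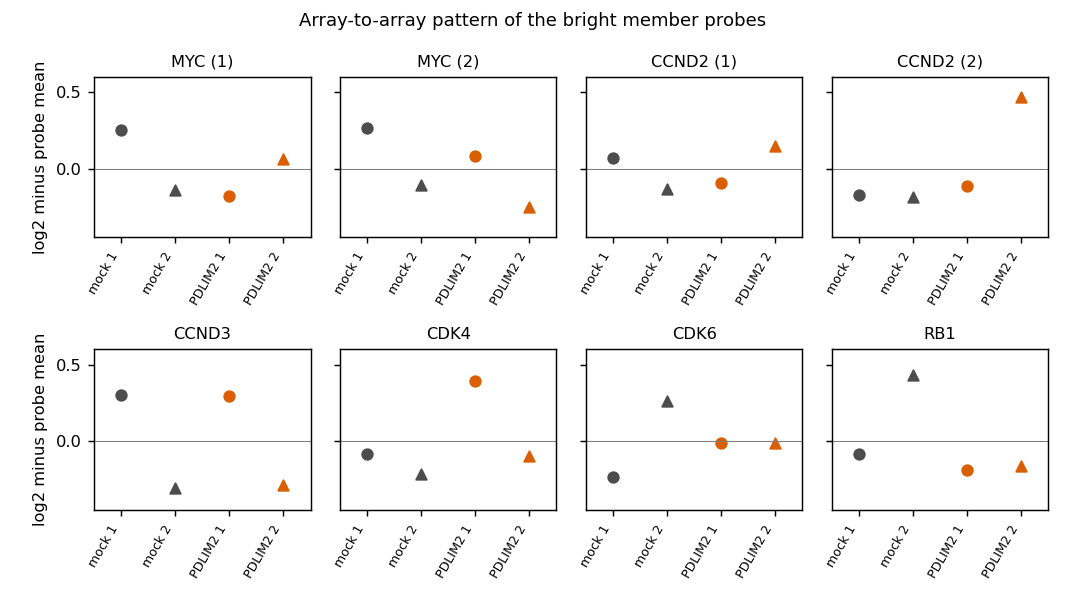
Each bright member probe on the 4 arrays, as log2 intensity minus the mean of that probe over the arrays, in the colours and shapes of the plot of levels. CCND3 separated by array number, with both circles high and both triangles low. The second CCND2 probe was high on the PDLIM2 array 2 alone, CDK4 on the PDLIM2 array 1 and RB1 on the mock array 2.

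CDK4, the catalytic partner of the D cyclins, read 11.70 and 11.57 on the mock arrays and 12.18 and 11.69 on the PDLIM2 arrays (percentile 96.7). The PDLIM2 array 1 stood above the others, and the second PDLIM2 value lay within the mock range. The difference was 0.30 (SE 0.19, interval -0.15 to 0.74), or 0.54 with PDLIM2 array 2 left out and 0.054 with PDLIM2 array 1 left out. CDK6, the other D cyclin kinase, read 10.94 and 11.44 on the mock arrays and 11.17 on both PDLIM2 arrays (percentile 95.1). Both PDLIM2 values lay between the mock values, and the difference was -0.026 (SE 0.19, interval -0.47 to 0.42). Without the mock array 2 it was 0.22, and without the mock array 1 it was -0.27.

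CDK4 is a known direct target of MYC, and its promoter is printed to show where it matches a motif that MYC binds. The 250 bases before its start site were taken from RefSeq (GRCh38.p14, chr12:57752311-57752560, minus strand, written 5′ to 3′ in the direction of the gene), with the motif CACGTG, the E-box that MYC and its partner MAX bind, in capitals.
CDK4: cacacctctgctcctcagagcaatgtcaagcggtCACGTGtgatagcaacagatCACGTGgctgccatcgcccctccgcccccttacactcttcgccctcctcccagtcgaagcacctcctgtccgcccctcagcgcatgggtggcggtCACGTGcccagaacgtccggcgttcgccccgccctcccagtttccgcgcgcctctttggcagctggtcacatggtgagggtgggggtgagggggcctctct
The motif, which reads the same on both strands, occurred 3 times, its first base 216, 196 and 101 bases before the start site. At least 1 copy was found in 6.34% of the 35116 windows of that length, and 3 or more copies in 28 of them (0.0797%). The table held 12 windows for 6 of the members other than MYC (CDK4, CDKN2A, CDKN2C, CCND3, CDK6 and RB1). Of these windows, only that of CDK4 and some of CDKN2C had the motif. The CDKN2C windows with the motif held 1 copy each, and another CDKN2C window had none. The single RB1 window precedes a start site inside the gene, so it says nothing of the main RB1 promoter. A match describes these letters and does not show that MYC was bound in L591 cells.

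The inhibitor gene CDKN2A was dim on all of its probes. It encodes p16INK4a from one start site and ARF from another further upstream, and the array has probes annotated to each of these transcripts. Where the probes lie in them is not known, so whether a probe reads only its annotated transcript was not checked. The probe annotated to p16INK4a (NM_000077), ILMN_1717714, read 5.89 and 5.64 on the mock arrays and 5.74 and 5.80 on the PDLIM2 arrays (percentile 31.4). The probe annotated to ARF (NM_058195), ILMN_1744295, read 5.38 and 5.46 on the mock arrays and 5.13 and 5.43 on the PDLIM2 arrays (percentile 1.67). The third, ILMN_1757255, annotated to a further splice form (NM_058197), lay between 5.44 and 5.70 (percentile 9.30). The groups overlapped on all 3 probes, with differences of 0.0076 (SE 0.16), -0.13 (SE 0.16) and -0.07 (SE 0.16). No probe of the gene was bright in either group. Since no detection value was used, a low level and none cannot be told apart.

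The stretches of 250 bases before the 2 start sites are printed because the transcripts to which these probes are annotated begin there. CG dinucleotides in the stretches are the sites of DNA methylation, by which CDKN2A is often silenced in lymphoma. Both come from RefSeq (GRCh38.p14, minus strand, written 5′ to 3′ in the direction of the gene), with CG dinucleotides in capitals. The window of the ARF start is chr9:21995325-21995574 and that of the p16INK4a start chr9:21974858-21975107.
ARF start: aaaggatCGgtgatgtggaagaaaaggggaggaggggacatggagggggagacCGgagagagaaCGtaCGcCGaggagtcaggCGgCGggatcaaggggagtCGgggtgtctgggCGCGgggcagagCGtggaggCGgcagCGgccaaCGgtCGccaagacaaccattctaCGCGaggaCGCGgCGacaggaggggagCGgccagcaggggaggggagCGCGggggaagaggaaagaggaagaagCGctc
p16INK4a start: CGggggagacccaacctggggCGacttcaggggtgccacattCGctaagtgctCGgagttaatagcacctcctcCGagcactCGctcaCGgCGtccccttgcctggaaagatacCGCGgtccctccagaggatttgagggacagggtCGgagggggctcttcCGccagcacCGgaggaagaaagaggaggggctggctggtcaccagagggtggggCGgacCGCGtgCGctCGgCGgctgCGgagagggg
They held 24 and 20 CG dinucleotides, against a median of 11 over all windows, and 23.7% and 32.4% of all windows held at least as many. Methylation was not measured in these samples.

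CDKN1C, which encodes the CIP/KIP inhibitor p57, was also dim. It read 5.82 and 5.87 on the mock arrays and 5.48 and 5.78 on the PDLIM2 arrays (percentile 28.0). Both PDLIM2 values were lower than both mock values, the second by a small margin. The difference was -0.21 (SE 0.16, interval -0.59 to 0.17) and was -0.063 without the PDLIM2 array 1. Such separation in the lower direction held for 2 of the 13 member probes, CDKN1C and RB1, and for 13.3% of all probes, and in the higher direction for 1, the second CCND2 probe, and 15.1% of all probes.

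RB1, the substrate on which these kinases converge, had the lowest difference of the members. It read 8.97 and 9.49 on the mock arrays and 8.87 and 8.89 on the PDLIM2 arrays (percentile 84.8). Both PDLIM2 values lay just under the first mock value, and the mock array 2 stood above the rest. The means were 9.23 ± 0.37 and 8.88 ± 0.02 (SD, n = 2 each), a difference of -0.35, or 0.785 times the mock level (SE 0.20, interval -0.80 to 0.10). Among the members it had the smallest p (limma, unadjusted p = 0.112, adjusted p = 0.9998). The difference was -0.61 without the mock array 1 and -0.089 without the mock array 2.

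**Figure D3:**
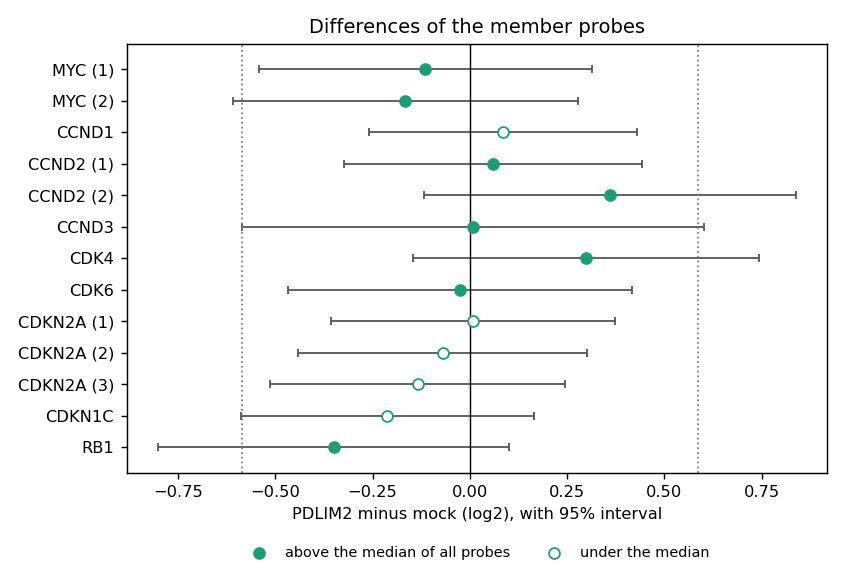
PDLIM2 minus mock difference of each member probe on the log2 scale, with its 95% interval from limma. Filled points are probes above the median of all probes and open points those under it, and the dotted lines mark 1.5-fold. Every interval includes 0, and every point lies between the dotted lines.

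The array number was set beside the group for the other bright members as well. For 4 of the 8 bright probes (the second MYC probe, CCND3, CDK4 and CDK6) the difference between the arrays numbered 2 and 1 was larger in size than that between PDLIM2 and mock. For CDK4 the sizes were close, at -0.31 and 0.30. The share of all probes for which this held was not counted, so the members cannot be set beside it. Over all probes the median size of the difference was 0.14 between the numbers and 0.10 between the groups.

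Genes that act with the members were taken from 4 lists, each gene by its brightest probe. The lists were chosen with earlier results of these data known, so a share set beside that of all genes is a description only. No gene of any list passed the test, which took no account of the array number. The adjusted p in limma was 0.87 for HBP1 and 0.9998 for the other genes named here. The G1 partners (cyclins E and A, CDK2, further inhibitors, pocket proteins, E2F factors and regulators of cyclin D) had a median difference of -0.057 over 40 genes, with 17 above 0 and 23 below, beside a median of 0.014 over all 20045 named genes. At an unadjusted p under 0.05, 4 of the 40 were lower and 0 higher, against 3.36% of all named genes in either direction and 5.13% of those above the median. The 4 were HBP1, a repressor that binds RB1, CDKN1B, which encodes the CDK2 inhibitor p27, the repressor E2F6, and CDK7, the kinase that activates other CDKs.

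CDKN1B read 9.58 and 9.79 on the mock arrays and 8.86 and 9.03 on the PDLIM2 arrays, so the groups stood apart by more than the range within either. Its difference was -0.74 (SE 0.16, interval -1.11 to -0.37), and that of its second probe was -0.53 (SE 0.21). HBP1 differed by -1.27 (SE 0.20), or 0.415 times the mock level, and by -1.23 on its second probe. With a block for the array number, the adjusted p in limma was 0.0126 for the brightest HBP1 probe and 0.059 for that of CDKN1B. E2F6 and CDK7 differed by -0.39 (SE 0.16) and -0.37 (SE 0.15), though the dim second probe of E2F6 read 0.020.

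The MYC network list holds MAX, the shared partner of the family, the proteins that compete with MYC for it, and MYC cofactors. Its median was -0.033 over 23 genes, with 10 above 0 and 13 below. An unadjusted p under 0.05 was found for 3 of the 23 (13%), beside 3.36% of all named genes and 5.13% of those above the median. These 3 were MXD4 at -0.54 (SE 0.16), MXD1 at -0.44 (SE 0.17) and MNT at -0.41 (SE 0.16). They encode repressors that pair with MAX, but the other such repressors of the list did not share their direction or size, with MXD3 at 0.43, MGA at 0.091 and MXI1, on a dim probe, at -0.12. MXD4 read 9.91 and 10.09 on the mock arrays and 9.55 and 9.37 on the PDLIM2 arrays, without overlap. With an array left out, MXD1 ranged from -0.61 to -0.26 and MNT from -0.55 to -0.27. None of them passed the adjusted test.

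E2F target genes, which are transcribed once RB1 is phosphorylated, had a median of 0.088 over 29 genes, with 18 above 0 and 11 below. At an unadjusted p under 0.05, 1 of the 29 was higher and 2 were lower, or 10.3%. The share was 3.36% of all named genes and 5.13% of those above the median. The licensing factor gene CDT1 differed by -0.47 (SE 0.15), the ribonucleotide reductase gene RRM2 by -0.53 (SE 0.21) and the replicative helicase gene MCM5 by 0.44 (SE 0.17). The median was -0.024 without the PDLIM2 array 2. RRM2 ranged from -0.84 to -0.22 with an array left out.

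MYC target genes, mostly of ribosome assembly and nucleotide synthesis, had a median of 0.092 over 34 genes, and 29 of them (85.3%) lay above 0. Among all named genes 53.7% lay above 0, and 55.5% among those above the median of all probes, with medians of 0.014 and 0.025. No MYC target had an unadjusted p under 0.05. The 2 with the smallest p were EIF4E, the cap-binding factor of translation, at 0.30 (SE 0.15), and MYBBP1A, a nucleolar protein, at 0.47 (SE 0.24). The second EIF4E probe above the median read -0.024, and the dim probes of this gene read -0.30, -0.17 and -0.047. MYBBP1A was 0.092 without the mock array 2. The list mean was 10.51 to 10.66 on the mock arrays and 10.68 to 10.73 on the PDLIM2 arrays, without overlap. Such separation was not particular to this list. The list means of the G1 partners and of the MYC network did not overlap either, with the PDLIM2 arrays lower. Those of the E2F targets overlapped. Gene by gene, the groups did not overlap for 29.4% of the MYC targets, beside 29% of all named genes and 30.1% of those above the median. The share was 42.5% for the G1 partners, 47.8% for the MYC network and 41.4% for the E2F targets. The median of the MYC targets with an array left out ranged from 0.030 to 0.14.

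**Figure D4:**
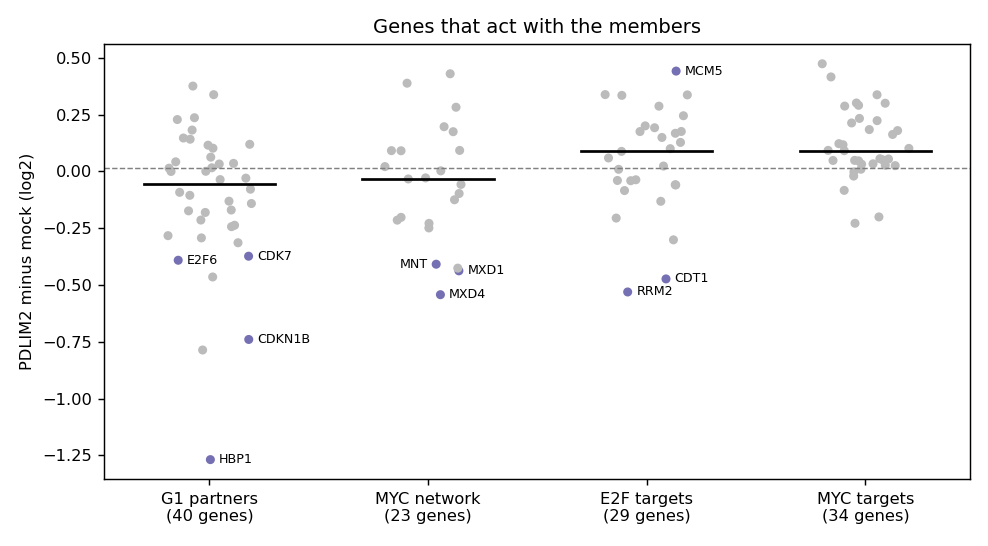
PDLIM2 minus mock difference (log2) of each measured gene in the 4 lists, with points spread sideways for legibility. Solid lines are list medians (-0.057, -0.033, 0.088 and 0.092 from left to right), the dashed line is the median of all named genes (0.014), and purple points with names have an unadjusted p under 0.05. HBP1 lies lowest at -1.27, and the MYC targets lie mostly above 0.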

How the data were processed

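The authors deposited 1 log2 intensity per probe and array. How they were scanned, corrected for background and normalized is not given in the sources used here, and per the labels RNA was polyadenylated and labelled with biotin. Quartiles of the deposited log2 values differed by at most 0.000808 between arrays, so the values were used unchanged. Of 47231 probes, 1 had an empty cell and was left out. GEO's platform annotation gave 30113 probes 1 symbol and 8 several, and the latter were left unnamed. Each difference is PDLIM2 minus mock from limma 3.58.1 (lmFit, eBayes) under R 4.3.3 on all 47230 complete probes, without a filter since dim members belong to the set. Two-sided p-values were adjusted by the Benjamini-Hochberg method over all probes, with 0.05 as threshold. Residual degrees of freedom were 2, and the prior added 5.90. Detection values were not used. Precision is limited by having 4 arrays.

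The members and the gene lists were chosen with earlier results of these data known. Named genes are all members, PDLIM2, the 2 genes of each list with the smallest p, and the 3 genes nearest in pattern to the brighter MYC probe and to the member probe of widest range. E2F6, CDK7, MNT, MXD3, MGA, MXI1, RRM2, CD83 and CD68 were named after their values were seen. Groups come from the sample titles. Alternatives were filters, quantile normalization, median centring, an offset of 50, trended and robust priors, a block for the replicate number, fits without each array, and probe means. The fit was tested on simulated data, where it called 25 of 100 probes changed 2-fold and 97 of 100 changed 4-fold. The simulated arrays were independent, while deviations of the real arrays with the same number correlated (r = 0.413).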

Additional observations from a re-analysis of the deposited data

How the results depend on the processing

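The 13 member probes kept their sign and stayed uncalled under quantile normalization, median centring, the offset of 50, limma-trend, the robust prior and the replicate block, and so did the 8 bright ones under filters at the median and the 75th percentile, which gave no value for the other 5. The arrays already shared their quartiles, so the 2 normalizations could change little. Arrays with the same number share only that number in the labels, and their deviations from the group means correlated across probes (r = 0.413). With the replicate block limma called 21 probes higher and 63 lower, 1 of them a G1 partner (HBP1, adjusted p = 0.0126), and RB1 and the second CCND2 probe had unadjusted p of 0.0410 and 0.0429 (adjusted 0.69 and 0.70). With an array left out, which leaves 1 array alone in its group, assumed to vary like the other, and unbalances the numbers, 0 to 245 probes were called higher and 0 to 769 lower, the highest without the PDLIM2 array 1. Called members stayed at 0, and called list genes ran from 0 to 3 (G1 partners), 0 to 2 (MYC network), 0 to 2 (E2F targets) and 0 to 1 (MYC targets). Signs turned for MYC (-0.31 to 0.081 and -0.35 to 0.020), the brighter CCND2 probe (-0.062 to 0.18), CCND3 (-0.30 to 0.31) and CDK6 (-0.27 to 0.22). They also turned for the CDKN2A probes annotated to p16INK4a (-0.11 to 0.13) and ARF (-0.28 to 0.015) and for the third (-0.20 to 0.061). The cause was not tested.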
